A study of Mus musculus with 12 samples.

Results

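The genes described here encode the collagens and other matrix proteins of the dermis, with the enzymes that cross-link them and a receptor and a secreted factor of the cells that make them. They were 40 genes listed by name, and 38 of them were measured among 18193 genes on arrays of whole mouse skin. *Fbn1*, which encodes fibrillin-1, and *Loxl2*, a lysyl oxidase family gene, had no probe set annotated to them alone and were not analysed here. The 38 genes fell by role into 5 fibrillar collagens, 5 microfibrillar and fibril-associated collagens, 6 basement membrane and anchoring collagens, 5 elastic fibre genes, 6 small leucine-rich proteoglycans, 3 enzymes and enhancers of collagen processing, 6 adhesive and matricellular genes, and the pair *Pdgfra* and *C1qtnf3*.

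Total RNA of full-thickness dorsal skin had been hybridized to 12 arrays, 3 in each of 4 groups: *Ahr*-/- mice on day 2 of imiquimod (IMQ), *Ahr*+/- mice on day 2 of IMQ, untreated *Ahr*-/- mice and untreated *Ahr*+/- mice (day 0). *Ahr*-/- mice lack the aryl hydrocarbon receptor in every tissue, and the controls were heterozygous littermates that keep 1 working copy of the gene. Treated mice received 30 mg of a cream with 5% IMQ on shaved skin each day, which brings on a psoriasis-like inflammation. Untreated mice received no cream, so IMQ, the cream and its application cannot be told apart, and the sources used here give neither age nor sex.

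Dermal fibroblasts secrete fibrillar collagens as procollagens, whose ends are trimmed outside the cell before the molecules assemble into fibrils and are cross-linked by lysyl oxidases. Small leucine-rich proteoglycans sit on the fibril surface and govern how fibrils grow and fuse, while collagen IV forms the sheet of the basement membranes under the epidermis and around vessels. In inflamed and wounded skin this matrix is remodelled by metalloproteinases and by glycoproteins such as tenascin C and thrombospondins. RNA of whole skin mixes all cell types, so fewer cells of a type and less RNA per cell cannot be told apart.

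All values are log2 signals, which the authors made with RMA, and a difference of 1 on this scale is a factor of 2. A gene passed the test where limma, fitted to all genes, gave it an adjusted p under 0.05 and at least a 1.5-fold change, and "rose" and "fell" are used here only for genes that passed. Signals of different probe sets cannot be set against each other. With 3 arrays per group, groups that do not overlap are common. Treated and untreated arrays did not overlap for 25 of the 38 genes in *Ahr*-/- skin (42.7% of all genes). In *Ahr*+/- skin this held for 15 of the 38 (29.8% of all genes). The genotypes did not overlap for 16 of the 38 on day 2 (33% of all genes) and for 1 without treatment (8.81%). No detection calls were used here, so the lowest signals, such as those of *C1qtnf3* and *Ecm2* in IMQ-treated *Ahr*-/- skin and *Mmp13* in untreated skin, were not shown to be above background, and the differences that rest on them are not exact changes in RNA. The highest signal of any gene on an array was 14.75 to 14.92, and *Col1a2*, *Col3a1* and *Dcn*, between 13.10 and 14.75, lay close to that top, where differences may be compressed. *Ahr* itself had signals of 9.74, 9.07 and 9.87 in IMQ-treated *Ahr*-/- skin, 9.79, 10.26 and 10.27 in IMQ-treated *Ahr*+/- skin, 11.37, 11.29 and 11.44 in untreated *Ahr*-/- skin and 11.30, 10.11 and 11.12 in untreated *Ahr*+/- skin. The genotypes overlapped on day 2 and in untreated skin, and since the place of its probe set relative to the deleted part was not determined, it checks no label. The keratinocyte genes *Krt5* and *Krt14* had signals of 12.82 to 14.84 throughout, and a mean of 12.78 to 13.98 over 8 skeletal muscle genes shows muscle transcripts in every sample. For the *Gapdh* control sets, the 3' minus the 5' log2 signal, a sign of RNA quality, was 1.17 and 1.52 in IMQ-treated *Ahr*-/- replicates 1 and 2, against 0.14 to 0.53 in the other 10 arrays. Untreated *Ahr*+/- replicate 2 had a mean of 12.61 over 8 genes of the growing hair follicle, while the other 11 arrays had 5.78 to 8.96. Untreated *Ahr*+/- replicates 1 and 3 had 8.46 and 8.96, against 6.06 to 7.85 in untreated *Ahr*-/- skin and 6.07 to 8.19 in IMQ-treated *Ahr*+/- skin. Of these 8 genes 3 fell with IMQ in *Ahr*+/- skin (37.5%, against 3.83% of all genes). Leaving out replicate 2 does not remove the higher means of the other 2 arrays, whose part in the results was not tested.

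**Figure D1:**
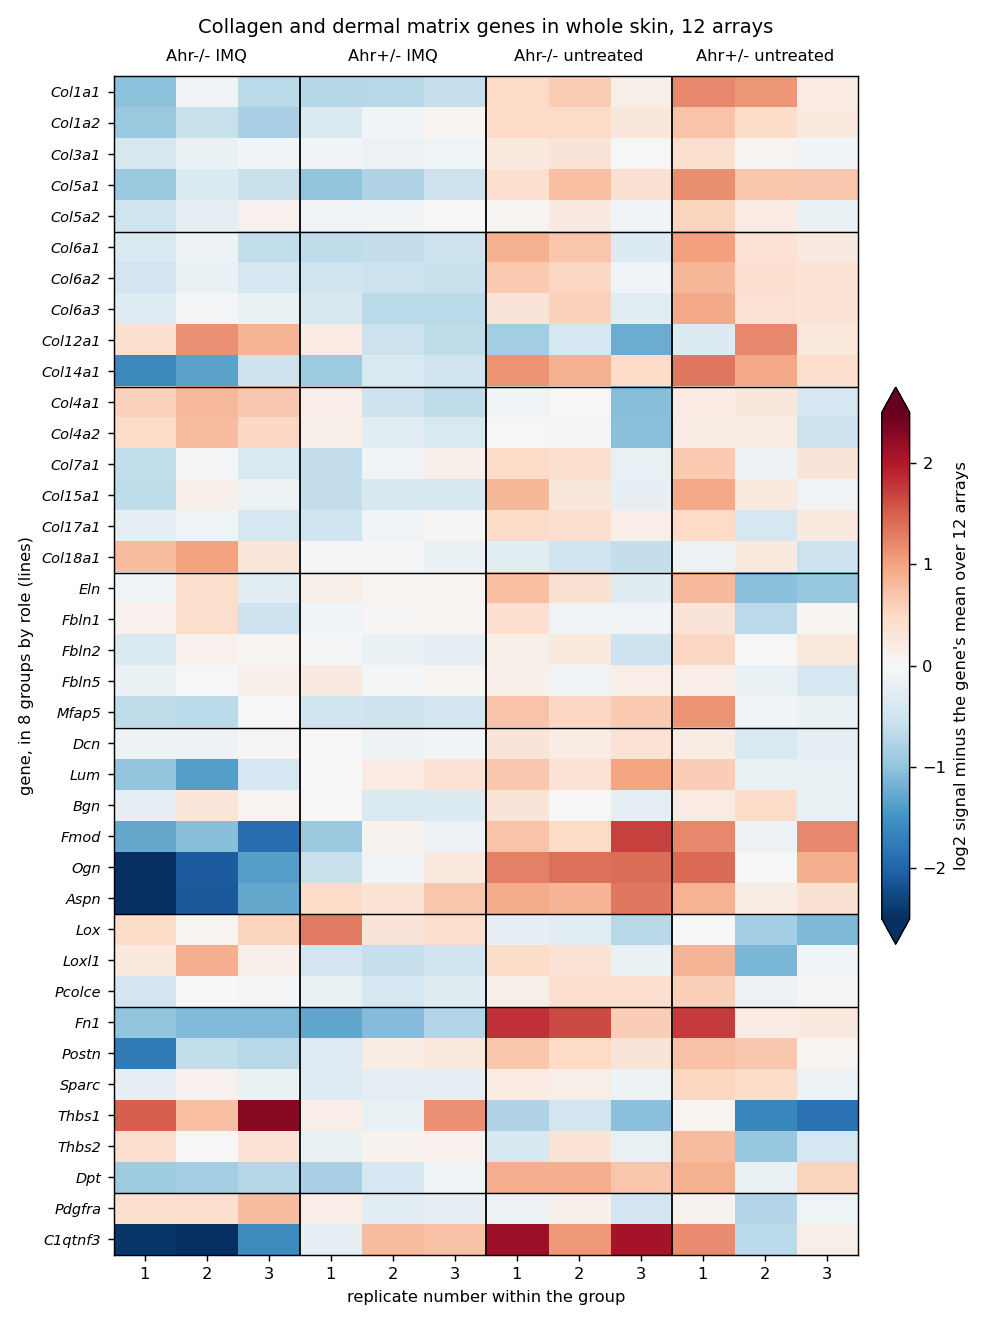
Heat map of the 38 genes (rows, grouped by role) in 12 arrays (columns, 3 per group, IMQ-treated *Ahr*-/- skin at the left), coloured by the log2 signal minus the gene's mean over the 12 arrays; colours stop at 2.5. *Col1a1*, *Col5a1*, *Col14a1* and the collagen VI genes are blue in all 6 IMQ-treated arrays, while *Ogn*, *Aspn*, *Lum* and *C1qtnf3* are deepest blue (lowest) in IMQ-treated *Ahr*-/- skin.

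In IMQ-treated *Ahr*-/- skin the matrix genes moved both ways relative to untreated *Ahr*-/- skin. Of the 38 genes 20 passed, against 22.7% of all genes: 14 fell (36.8%, against 12.1% of all genes) and 6 rose (15.8%, against 10.6% of all genes). The 14 that fell included chains of collagens I, V, VI and XIV, 4 of the 6 small leucine-rich proteoglycans, fibronectin, periostin, dermatopontin and the secreted factor *C1qtnf3*. The 6 that rose were both main basement membrane chains *Col4a1* and *Col4a2*, *Col18a1*, *Col12a1*, thrombospondin-1 and the fibroblast receptor *Pdgfra*. The median difference of the 38 genes was -0.45, against 0.07 over all genes.

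In IMQ-treated *Ahr*+/- skin 10 of the 38 genes passed relative to untreated *Ahr*+/- skin, against 9.05% of all genes: 9 fell (23.7%, against 3.83% of all genes) and 1 rose, *Lox* (2.63%, against 5.22% of all genes). Here the genes that fell were chains of collagens I, V, VI and XIV with *Fn1* and *Dpt*, and none of the small leucine-rich proteoglycans was among them. The median difference was -0.40, against -0.01 over all genes. Both genotypes shared 7 genes that fell, which are 7 of the 14 in *Ahr*-/- skin and 7 of the 9 in *Ahr*+/- skin: *Col1a1*, *Col1a2*, *Col5a1*, *Col6a2*, *Col14a1*, *Fn1* and *Dpt*. The share of all genes that fell in both was not worked out, so this count does not show whether such sharing is particular to matrix genes. In neither genotype did 15 of the 38 genes pass; their differences lay between -0.61 and 0.33 in *Ahr*-/- skin and between -0.82 and 0.49 in *Ahr*+/- skin.

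**Figure D2:**
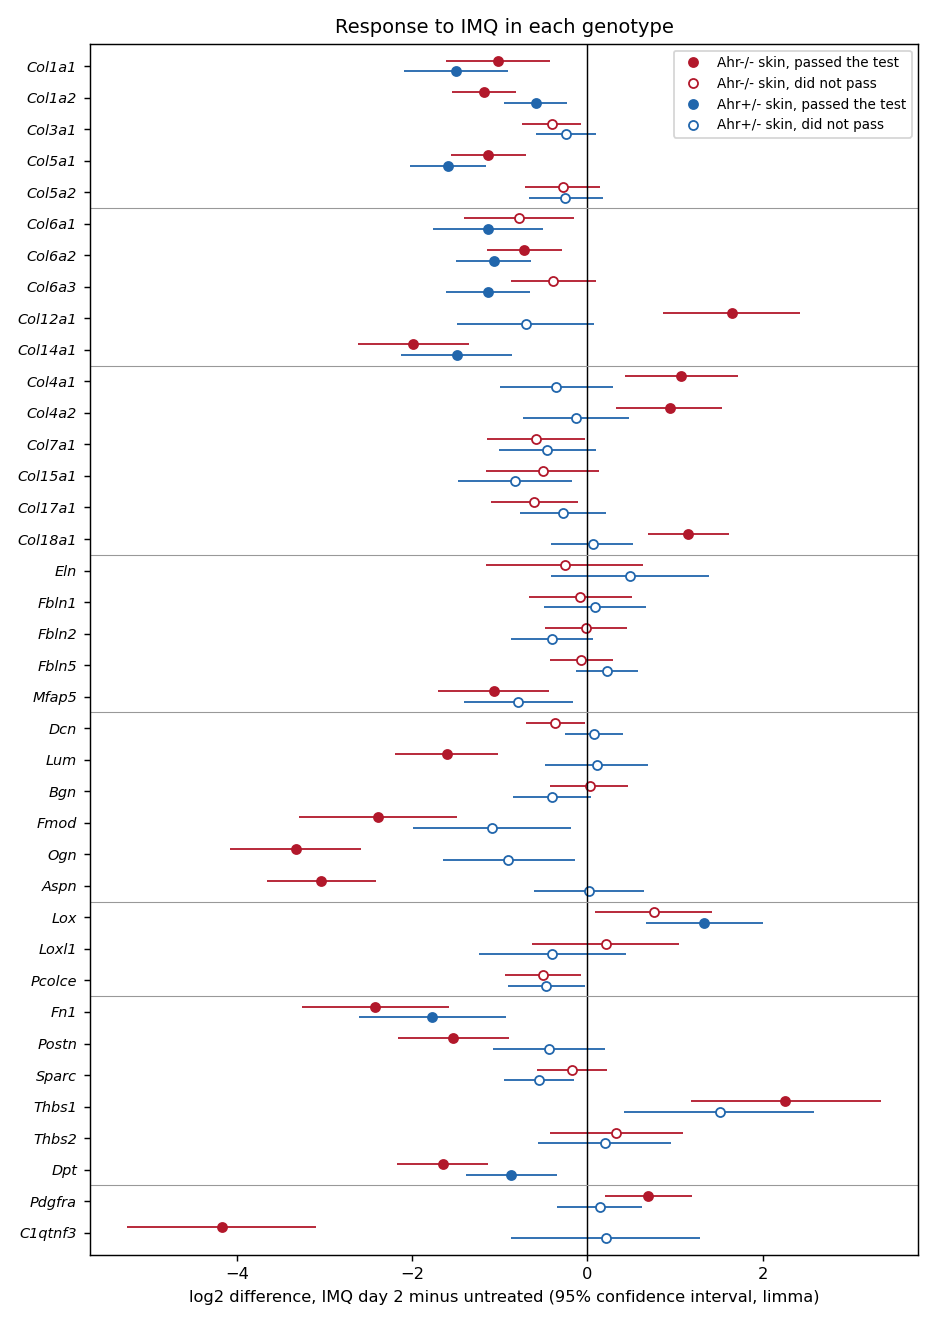
Change with IMQ, as the log2 signal of treated minus untreated skin, of each of the 38 genes in *Ahr*-/- skin (red, upper mark) and *Ahr*+/- skin (blue, lower mark), with 95% confidence intervals from limma and filled marks for genes that passed the test. *Col1a1*, *Col5a1*, *Col14a1* and *Fn1* lie left of 0 in both genotypes, while *C1qtnf3* (-4.17), *Ogn* (-3.33) and *Aspn* (-3.04) lie far left in *Ahr*-/- skin and at 0.21, -0.90 and 0.02 in *Ahr*+/- skin.

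Among the fibrillar collagens, the genes of collagen I and the first chain of collagen V fell in both genotypes. *Col1a1*, which encodes the main chain of the most abundant skin collagen, had signals of 9.92, 10.85 and 10.28 in IMQ-treated *Ahr*-/- skin, against 11.44, 11.58 and 11.10 in untreated *Ahr*-/- skin. The *Ahr*+/- arrays had 10.23, 10.25 and 10.36 after IMQ and 12.14, 12.05 and 11.15 without. The groups did not overlap in either genotype, and *Col1a1* was 2.03 times lower after IMQ in *Ahr*-/- skin (log2 difference -1.02 with a standard error, SE, of 0.27, adjusted p = 0.0152) and 2.83 times lower in *Ahr*+/- skin (-1.50, SE 0.27, adjusted p = 0.00484). A dimmer set of *Col1a1* reversed this order. With all probe sets fitted it gave -2.03 in *Ahr*-/- skin (adjusted p = 0.0115) and -1.41 in *Ahr*+/- skin (adjusted p = 0.094), which did not pass. The partner chain *Col1a2* had 13.10, 13.48 and 13.23 in IMQ-treated *Ahr*-/- skin, against 14.51, 14.51 and 14.32 in untreated *Ahr*-/- skin (-1.18, adjusted p = 0.000322), and fell in *Ahr*+/- skin too (-0.59, adjusted p = 0.0417). This set is near the top of the range. A dimmer set of *Col1a2* gave -1.24 in *Ahr*-/- skin and -1.37 in *Ahr*+/- skin. The dimmest of the 3 *Col1a2* sets gave -0.48 (adjusted p = 0.354 with all probe sets fitted) and -1.45 (adjusted p = 0.0188). In *Ahr*+/- skin *Col1a2* lost its call under 10 of 18 alternatives. *Col5a1*, whose product sets the width of collagen fibrils, had 9.04, 9.62 and 9.41 in IMQ-treated *Ahr*-/- skin, against 10.38, 10.72 and 10.35 in untreated *Ahr*-/- skin. Signals in *Ahr*+/- skin were 8.98, 9.22 and 9.44 after IMQ and 11.12, 10.65 and 10.64 without, a difference of -1.59 (adjusted p = 0.000452) beside -1.13 in *Ahr*-/- skin (adjusted p = 0.00132). *Col3a1* and *Col5a2*, which lie next to each other on mouse chromosome 1, did not pass, with differences of -0.40 and -0.28 in *Ahr*-/- skin and -0.24 and -0.25 in *Ahr*+/- skin. None of the 5 genes differed between the genotypes' responses by the test of that difference, whose values ran from -0.58 for *Col1a2* to 0.48 for *Col1a1*. With the mean of all its sets *Col1a2* turned to 0.17 (adjusted p = 0.793). The dimmer set of *Col1a1* gave -0.62 (adjusted p = 0.704 with all probe sets fitted).

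The genes of collagen VI, which forms beaded filaments between fibrils and cells, were lower in value after IMQ in both genotypes, and all 3 passed in *Ahr*+/- skin. *Col6a3* had 11.69, 11.41 and 11.42 in IMQ-treated *Ahr*+/- skin, against 13.04, 12.44 and 12.43 in untreated *Ahr*+/- skin (-1.13, SE 0.22, adjusted p = 0.00758). *Col6a1* had 10.05, 10.08 and 10.14 there after IMQ and 11.70, 11.04 and 10.91 without (-1.13, adjusted p = 0.0277). Its neighbour on chromosome 10, *Col6a2*, had 10.78, 10.74 and 10.72 after IMQ and 12.11, 11.71 and 11.63 without (-1.07, adjusted p = 0.00535). The treated groups are tight and lie wholly below the untreated ones for all 3 genes. *Col6a2* fell in *Ahr*-/- skin as well (-0.72, adjusted p = 0.0173). With all probe sets fitted, a dimmer set of *Col6a2* gave -0.49 there (adjusted p = 0.158). With the mean of its sets *Col6a2* did not pass there (-0.60, adjusted p = 0.052). *Col6a1* (-0.78, adjusted p = 0.063) and *Col6a3* (-0.39, adjusted p = 0.225) did not pass in *Ahr*-/- skin. The difference between the responses did not pass for any of the 3 genes (0.35 to 0.74).

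The fibril-associated collagens went apart in *Ahr*-/- skin. *Col14a1*, whose product coats collagen fibrils, had 7.59, 7.85 and 8.68 in IMQ-treated *Ahr*-/- skin, against 10.32, 10.09 and 9.67 in untreated *Ahr*-/- skin, and was 3.96 times lower (-1.99, SE 0.29, adjusted p = 0.000441). The *Ahr*+/- arrays gave 8.30, 8.82 and 8.70 after IMQ and 10.51, 10.17 and 9.63 without (-1.49, adjusted p = 0.00739). It thus fell in both genotypes, with no overlap between treated and untreated arrays; of its other probe sets, 1 dim set with a mean of 4.73 had a difference of 0.18 in *Ahr*-/- skin. *Col12a1*, a relative that is found at fibril surfaces in tissue under tension, had 8.67, 9.41 and 9.13 in IMQ-treated *Ahr*-/- skin, against 7.40, 7.83 and 7.04 in untreated *Ahr*-/- skin, and was 3.14 times higher (1.65, SE 0.36, adjusted p = 0.0051). In *Ahr*+/- skin it had 8.47, 7.73 and 7.63 after IMQ and 7.93, 9.48 and 8.53 without (-0.70, adjusted p = 0.254), and the value of 9.48 belongs to the array with the high hair follicle signal. The responses of *Col12a1* differed by 2.35 (standard error 0.51, adjusted p = 0.0464), but its second brightest probe set gave 0.40 (adjusted p = 0.521 with all probe sets fitted), and with the mean of its 4 probe sets the difference did not pass.

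In the basement membrane, the chains of collagen IV went in opposite directions in *Ahr*-/- skin. *Col4a1* and *Col4a2* encode the chains found in nearly every basement membrane and lie head to head on chromosome 8. *Col4a1* had 12.16, 12.41 and 12.27 in IMQ-treated *Ahr*-/- skin, against 11.50, 11.61 and 10.52 in untreated *Ahr*-/- skin, and was 2.10 times higher (1.07, SE 0.30, adjusted p = 0.018). With all probe sets fitted, a dimmer set of *Col4a1* gave 0.55 (adjusted p = 0.161). With the mean of its sets *Col4a1* did not pass (0.81, adjusted p = 0.0503). *Col4a2* had 10.63, 10.95 and 10.70 after IMQ and 10.17, 10.15 and 9.13 without (0.94, SE 0.28, adjusted p = 0.0245). All treated arrays lay above the untreated ones for both genes, and the lowest value in each case was untreated *Ahr*-/- replicate 3. For *Col4a1*, *Ahr*+/- skin had 11.76, 11.07 and 10.95 after IMQ and 11.80, 11.88 and 11.17 without (-0.36, adjusted p = 0.514), and *Col4a2* differed by -0.13.

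*Col4a5* and *Col4a6*, which encode chains restricted to some basement membranes, among them that of the epidermis, and are neighbours on the X chromosome, were not on the list of 40 and stood among 11 other collagen chains looked at beside it. *Col4a5* had 5.36, 5.23 and 5.09 in IMQ-treated *Ahr*-/- skin and 6.51, 7.55 and 7.85 in IMQ-treated *Ahr*+/- skin, against 9.13, 8.89 and 8.27 in untreated *Ahr*-/- skin and 8.74, 8.55 and 8.14 in untreated *Ahr*+/- skin. It fell in both genotypes, with differences of -3.54 in *Ahr*-/- skin, adjusted p = 1.01e-05, and -1.17 in *Ahr*+/- skin, adjusted p = 0.0332. The responses differed by -2.36 (standard error 0.44, adjusted p = 0.0269). *Col4a6* had 5.72, 5.72 and 5.24 in IMQ-treated *Ahr*-/- skin, against 7.56, 7.36 and 7.19 in untreated *Ahr*-/- skin (-1.81, adjusted p = 2.99e-05), and in *Ahr*+/- skin it fell by 1.10 (adjusted p = 0.00286). No treated array of either gene reached an untreated one. Basal keratinocytes make these chains, and *Krt15*, which marks resting basal and follicle bulge keratinocytes, fell too (*Ahr*-/- skin -3.35, adjusted p = 0.000225; *Ahr*+/- skin -1.57, adjusted p = 0.0444), while *Krt14* rose by 1.58 in *Ahr*-/- skin and by 1.49 in *Ahr*+/- skin; the part of these shifts in the result was not tested.

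**Figure D3:**
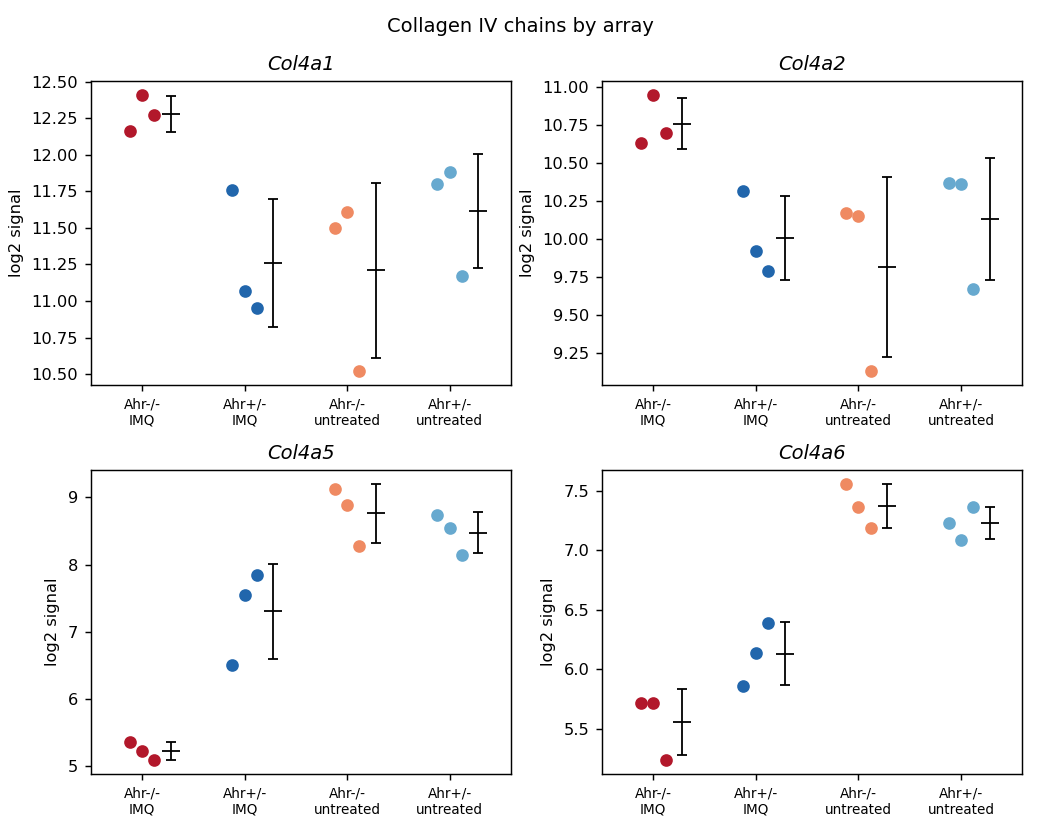
Log2 signal of 4 collagen IV genes in each array (points), with the mean and SD of each group of 3 (bars), IMQ-treated *Ahr*-/- skin at the left. *Col4a1* and *Col4a2* are highest in IMQ-treated *Ahr*-/- skin, where *Col4a5* (5.09 to 5.36) and *Col4a6* (5.24 to 5.72) are lowest.

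*Col18a1*, a basement membrane collagen whose end fragment is endostatin, had 10.06, 10.27 and 9.56 in IMQ-treated *Ahr*-/- skin, against 8.99, 8.77 and 8.66 in untreated *Ahr*-/- skin, and rose 2.23-fold (1.15, SE 0.21, adjusted p = 0.00189). In *Ahr*+/- skin the difference was 0.06. *Col15a1*, its close relative, *Col7a1*, which forms the anchoring fibrils, and *Col17a1*, a collagen of the hemidesmosome, did not pass in either genotype, with differences between -0.61 and -0.51 in *Ahr*-/- skin and between -0.82 and -0.28 in *Ahr*+/- skin. The endothelial genes *Cdh5* and *Pecam1*, made by cells that also make *Col4a1*, *Col4a2* and *Col18a1*, rose in the same *Ahr*-/- arrays, by 1.02 (adjusted p = 0.00525) and 1.45 (adjusted p = 0.00821); of 6 endothelial genes 3 rose there, while *Tek* (-0.84, adjusted p = 0.111) and *Kdr* (-0.33, adjusted p = 0.28) had lower signals without passing, and the mean over them was 8.46 to 8.57 after IMQ and 7.86 to 8.05 without. Their part in the result was not tested.

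Of the 5 elastic fibre genes, 1 passed in *Ahr*-/- skin (20%, against 22.7% of all genes) and none in *Ahr*+/- skin (against 9.05% of all genes). *Eln* (elastin), *Fbln1*, *Fbln2* and *Fbln5*, the last of which is needed to assemble elastic fibres, did not pass in either genotype, with differences from -0.26 to -0.02 in *Ahr*-/- skin and from -0.40 to 0.49 in *Ahr*+/- skin. *Mfap5*, a microfibril-associated glycoprotein gene, fell in *Ahr*-/- skin (-1.07, SE 0.29, adjusted p = 0.0162), with 8.68, 8.63 and 9.31 after IMQ and 10.03, 9.83 and 9.97 without. Its difference in *Ahr*+/- skin was -0.79 (adjusted p = 0.11), and the responses were not shown to differ (-0.28, adjusted p = 0.763). Of the related genes outside the list, *Mfap4* fell in both genotypes (-2.11 in *Ahr*-/- skin and -1.75 in *Ahr*+/- skin) and *Emilin1*, which encodes an elastic fibre glycoprotein, rose in *Ahr*-/- skin (0.85, adjusted p = 0.00449).

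Of the 6 small leucine-rich proteoglycans, 4 fell in *Ahr*-/- skin and none passed in *Ahr*+/- skin with all arrays. Without untreated *Ahr*+/- replicate 2, the array of high hair follicle signal, *Ogn* (-1.29, adjusted p = 0.0126) and *Fmod* (-1.53, adjusted p = 0.0156) fell in *Ahr*+/- skin too, and both also passed with array weights. *Ogn*, which encodes osteoglycin (mimecan), had 8.30, 8.73 and 9.42 in IMQ-treated *Ahr*-/- skin and 10.25, 10.74 and 11.04 in IMQ-treated *Ahr*+/- skin, against 12.07, 12.18 and 12.20 in untreated *Ahr*-/- skin and 12.21, 10.79 and 11.71 in untreated *Ahr*+/- skin. The IMQ-treated *Ahr*-/- arrays stood apart from all other 9. *Ogn* was 10.1 times lower after IMQ in *Ahr*-/- skin (-3.33, SE 0.35, adjusted p = 3.79e-05), while in *Ahr*+/- skin the difference of -0.90 did not pass (adjusted p = 0.125). *Aspn*, which encodes asporin, a proteoglycan that binds collagen and TGF-beta, had 6.04, 6.56 and 7.38 in IMQ-treated *Ahr*-/- skin and 9.13, 9.0 and 9.35 in IMQ-treated *Ahr*+/- skin, against 9.59, 9.52 and 9.98 in untreated *Ahr*-/- skin and 9.53, 8.86 and 9.04 in untreated *Ahr*+/- skin. It was 8.20 times lower in *Ahr*-/- skin (-3.04, SE 0.29, adjusted p = 1.9e-05) and differed by 0.02 in *Ahr*+/- skin (95% confidence interval -0.61 to 0.65).

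*Lum*, which encodes lumican, a regulator of fibril spacing, had 11.02, 10.64 and 11.58 in IMQ-treated *Ahr*-/- skin and 12, 12.22 and 12.37 in IMQ-treated *Ahr*+/- skin, against 12.68, 12.38 and 12.99 in untreated *Ahr*-/- skin and 12.63, 11.82 and 11.83 in untreated *Ahr*+/- skin. It fell 3.04-fold in *Ahr*-/- skin (-1.60, SE 0.27, adjusted p = 0.00101) and differed by 0.11 in *Ahr*+/- skin. Its neighbour on chromosome 10, *Dcn* (decorin), did not pass in either genotype (-0.37, adjusted p = 0.0975, in *Ahr*-/- skin and 0.08 in *Ahr*+/- skin). *Fmod*, which encodes fibromodulin, had 6.83, 7.04 and 6.20 in IMQ-treated *Ahr*-/- skin, against 8.81, 8.60 and 9.82 in untreated *Ahr*-/- skin (-2.39, SE 0.41, adjusted p = 0.00123). For *Fmod*, *Ahr*+/- skin had 7.18, 8.19 and 7.96 after IMQ and 9.31, 7.98 and 9.30 without, groups that overlap (-1.09, adjusted p = 0.121). Its neighbour *Prelp*, another member of the family, went the other way in *Ahr*-/- skin (0.70, adjusted p = 0.025). *Bgn* (biglycan) did not pass in either genotype (0.03 in *Ahr*-/- skin and -0.40 in *Ahr*+/- skin).

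*Ogn* and *Aspn* are neighbours, and RefSeq gives the order *Ecm2*, *Aspn*, *Omd*, *Ogn* on mouse chromosome 13, all 4 inside the gene model of the centromere protein gene *Cenpp*. *Omd* (osteomodulin) and *Ecm2*, which encodes another leucine-rich matrix protein, are not on the list of 40 and were looked at among 22 other matrix genes. *Ecm2* had 4.41, 4.41 and 4.28 in IMQ-treated *Ahr*-/- skin, against 7.77, 7.48 and 8.04 in untreated *Ahr*-/- skin (-3.40, adjusted p = 5.83e-05). *Omd* had 5.22, 5.50 and 6.55 after IMQ and 7.70, 7.75 and 8.24 without (-2.14, adjusted p = 0.000509). All 4 genes of the row thus fell in *Ahr*-/- skin, and in *Ahr*+/- skin none passed, with differences of -0.77 (*Ecm2*), 0.02 (*Aspn*), -0.07 (*Omd*) and -0.90 (*Ogn*). Without untreated *Ahr*+/- replicate 2, *Ecm2* fell there as well (-1.29, adjusted p = 0.00583), as *Ogn* did, so 2 of the 4 genes then fell in both genotypes. The genes around them did not fall in *Ahr*-/- skin: *Cenpp* differed by -0.35, *Nol8* by -0.24 and *Bicd2* by 0.13, none of which passed, while *Ippk* (1.07) and *Iars* (0.67) rose.

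The 250 bases before the RefSeq start of these 4 genes, and of *C1qtnf3*, are shown because *Aspn*, *Ogn* and *C1qtnf3* are genes of the list that differed between the genotypes on day 2 of IMQ and *Ecm2* and *Omd* lie in the same row; *Lum* is not shown. Sequences are from RefSeq on GRCm38.p6, 5′ to 3′ on the gene's strand, which is the plus strand for all 5. They are *Ecm2* at chr13:49504560-49504809, *Aspn* at chr13:49544193-49544442, *Omd* at chr13:49582212-49582461, *Ogn* at chr13:49607765-49608014 and *C1qtnf3* at chr15:10952082-10952331. Capitals mark matches on either strand to the letters of 4 motifs: GCGTG, the core of the site bound by the aryl hydrocarbon receptor, TGANTCA, the site of AP-1, TATAAA and CCAAT.
Ecm2: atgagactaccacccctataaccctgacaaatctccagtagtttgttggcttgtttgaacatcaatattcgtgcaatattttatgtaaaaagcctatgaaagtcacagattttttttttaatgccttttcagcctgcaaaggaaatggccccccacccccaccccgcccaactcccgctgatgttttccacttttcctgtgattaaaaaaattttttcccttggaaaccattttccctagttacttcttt
Aspn: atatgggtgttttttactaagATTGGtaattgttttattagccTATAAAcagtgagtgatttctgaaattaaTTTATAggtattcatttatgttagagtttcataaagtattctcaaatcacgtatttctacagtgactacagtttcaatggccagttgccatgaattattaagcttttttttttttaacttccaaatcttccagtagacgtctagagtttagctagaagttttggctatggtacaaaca
Omd: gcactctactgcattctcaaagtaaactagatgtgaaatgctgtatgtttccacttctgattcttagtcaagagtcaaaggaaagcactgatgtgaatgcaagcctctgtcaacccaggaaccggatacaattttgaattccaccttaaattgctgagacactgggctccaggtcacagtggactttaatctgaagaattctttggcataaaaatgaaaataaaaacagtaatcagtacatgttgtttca
Ogn: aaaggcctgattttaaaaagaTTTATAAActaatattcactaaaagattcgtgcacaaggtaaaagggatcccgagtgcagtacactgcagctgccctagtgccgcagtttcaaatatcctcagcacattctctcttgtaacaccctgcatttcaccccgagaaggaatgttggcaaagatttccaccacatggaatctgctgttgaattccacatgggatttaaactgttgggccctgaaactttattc
C1qtnf3: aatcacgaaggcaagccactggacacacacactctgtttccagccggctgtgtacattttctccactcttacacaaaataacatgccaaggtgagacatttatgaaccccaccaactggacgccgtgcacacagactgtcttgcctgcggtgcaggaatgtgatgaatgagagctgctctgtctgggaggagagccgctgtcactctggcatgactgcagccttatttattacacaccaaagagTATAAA
No window held GCGTG or TGANTCA, which occur in 28.2% and 6.75% of all 32851 RefSeq windows of this length. TATAAA, found in 12.4% of all windows, occurred in those of *Aspn*, *Ogn* and *C1qtnf3*, in the last directly before the start, and in *Ogn* as 2 overlapping matches on opposite strands. CCAAT, found in 33.8%, matched in that of *Aspn* alone. A match describes these letters only, and a missing one says only that they are not in this window.

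Among the enzymes, *Lox*, a lysyl oxidase that cross-links collagen and elastin, was the 1 gene of the list that rose in *Ahr*+/- skin. It had 11.07, 10.09 and 10.21 in IMQ-treated *Ahr*+/- skin, against 9.79, 8.92 and 8.66 in untreated *Ahr*+/- skin, and was 2.52 times higher (1.33, SE 0.31, adjusted p = 0.0165). Its signals in *Ahr*-/- skin were 10.25, 9.84 and 10.34 after IMQ and 9.57, 9.50 and 9.09 without, groups that do not overlap, but the difference of 0.76 did not pass (adjusted p = 0.0855). *Loxl1*, which acts on elastic fibres, and *Pcolce*, which speeds the trimming of procollagen, did not pass in either genotype (0.21 and -0.50 in *Ahr*-/- skin, -0.40 and -0.47 in *Ahr*+/- skin).

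Of the adhesive genes, *Fn1*, which encodes fibronectin, had the largest fall of the list in *Ahr*+/- skin. *Fn1* had 9.81, 9.69 and 9.68 in IMQ-treated *Ahr*-/- skin, against 12.61, 12.43 and 11.40 in untreated *Ahr*-/- skin, and was 5.36 times lower (-2.42, SE 0.39, adjusted p = 0.000741). Its signals in *Ahr*+/- skin were 9.48, 9.71 and 10.06 after IMQ and 12.54, 11 and 11.03 without, which is 3.41 times lower (-1.77, SE 0.39, adjusted p = 0.0128). The 6 treated arrays of both genotypes lay between 9.48 and 10.06. *Dpt*, which encodes dermatopontin, a binder of decorin and collagen, had 11.38, 11.42 and 11.56 in IMQ-treated *Ahr*-/- skin, against 13.18, 13.17 and 12.96 in untreated *Ahr*-/- skin (-1.65, adjusted p = 0.000375). In *Ahr*+/- skin it had 11.46, 11.85 and 12.16 after IMQ and 13.15, 12.11 and 12.82 without, groups that overlap (-0.87, adjusted p = 0.0379). *Postn* (periostin), a partner of fibronectin and collagen I, fell in *Ahr*-/- skin (-1.53, SE 0.29, adjusted p = 0.00233), with signals of 10.69, 11.85 and 11.77 after IMQ and 13.15, 12.96 and 12.79 without, and differed by -0.44 in *Ahr*+/- skin.

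Thrombospondin-1 was the member that rose most in *Ahr*-/- skin. *Thbs1*, whose product activates latent TGF-beta, had 10.74, 9.98 and 11.52 in IMQ-treated *Ahr*-/- skin, against 8.48, 8.77 and 8.20 in untreated *Ahr*-/- skin, and was 4.80 times higher (2.26, SE 0.50, adjusted p = 0.00527). In *Ahr*+/- skin it had 9.40, 9.07 and 10.37 after IMQ and 9.30, 7.61 and 7.40 without, groups that overlap (1.51, adjusted p = 0.077). *Sparc*, which encodes the collagen-binding protein osteonectin, and *Thbs2* did not pass in either genotype (-0.17 and 0.33 in *Ahr*-/- skin, -0.55 and 0.20 in *Ahr*+/- skin).

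The last pair moved in opposite directions in *Ahr*-/- skin. *C1qtnf3*, which encodes a secreted protein of the C1q and TNF family, had 4.36, 3.56 and 5.19 in IMQ-treated *Ahr*-/- skin and 6.56, 7.57 and 7.52 in IMQ-treated *Ahr*+/- skin, against 8.92, 7.86 and 8.86 in untreated *Ahr*-/- skin and 7.97, 6.12 and 6.93 in untreated *Ahr*+/- skin. It fell after IMQ in *Ahr*-/- skin (-4.17, SE 0.50, adjusted p = 9.64e-05), where its signals were not shown to be above background, and differed by 0.21 in *Ahr*+/- skin (adjusted p = 0.852). *Pdgfra*, the PDGF receptor that marks fibroblasts, had 11.38, 11.39 and 11.74 in IMQ-treated *Ahr*-/- skin, against 10.83, 11.10 and 10.50 in untreated *Ahr*-/- skin, and rose 1.62-fold (0.69, SE 0.23, adjusted p = 0.0375). Its difference in *Ahr*+/- skin was 0.14 (adjusted p = 0.773). With all probe sets fitted, a dimmer set rose in both genotypes, by 1.07 in *Ahr*-/- skin (adjusted p = 0.00215) and 0.96 in *Ahr*+/- skin (adjusted p = 0.0094). The dimmest set gave 1.45 (adjusted p = 0.000727) and 0.51 (adjusted p = 0.176). Beside *Pdgfra*, the other fibroblast genes had no common direction in *Ahr*-/- skin: of 10 measured, *Pdgfra* included, 2 rose and 3 fell, with *Twist2* at 1.00, *Cd34* at -1.67, *Fap* at -1.46, *Dpp4* at -1.32 and *Vim* at -0.08. The mean over the 10 was 9.72 to 10 in IMQ-treated *Ahr*-/- skin and 9.61 to 9.90 in IMQ-treated *Ahr*+/- skin, against 10.16 to 10.42 in untreated *Ahr*-/- skin and 9.68 to 10.58 in untreated *Ahr*+/- skin. Their part in the results was not tested.

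These counts moved with single arrays. In *Ahr*-/- skin 16 genes passed without untreated replicate 1 or without treated replicate 1 (*Col1a1*, *Col6a2*, *Mfap5* and *Pdgfra* lost), 16 without treated replicate 2 (*Col4a1*, *Col4a2*, *Mfap5* and *Pdgfra* lost), 20 without untreated replicate 3 (*Col4a1*, *Col4a2* and *Pdgfra* lost and 3 others gained), 12 with the *Gapdh* 3'/5' difference as a covariate, and 11 with treated replicate 3 as the only treated array. In the last 2 settings none of the rises but that of *Thbs1* passed, though with the covariate the differences of *Col12a1* (1.64), *Col4a1* (1.14), *Col4a2* (0.96), *Col18a1* (0.88) and *Pdgfra* (0.88) were still positive. A fit with 1 array in a group takes the spread from the other groups and assumes that the lone array varies like them. The *Gapdh* difference was high in treated replicates 1 and 2 alone, so the covariate fit rests mainly on replicate 3. Those 2 settings are thus not separate checks. In *Ahr*+/- skin 5 genes passed without treated replicate 1, which lost *Col1a2*, *Col6a1*, *Lox*, *Fn1* and *Dpt*, and 7 without treated replicate 2; 11 passed without the untreated replicate 2 of high hair follicle signal. *Col5a1*, *Col14a1*, *Ogn*, *Aspn*, *Fmod*, *Fn1*, *Postn*, *Dpt*, *Thbs1*, *Col1a2* and *C1qtnf3* passed in *Ahr*-/- skin under each of the 19 alternatives run.

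Between the genotypes on day 2 of IMQ, 4 of the 38 genes were lower in *Ahr*-/- skin than in *Ahr*+/- skin (10.5%, against 1.86% of all genes) and none was higher (against 2.12% of all genes, or 3.98% in either direction). They were *Aspn*, *Ogn* and *Lum*, which make 3 of the 6 small leucine-rich proteoglycans, and *C1qtnf3*. The 7 genes that fell in both genotypes did not differ by the test on day 2, with differences between -0.64 (*Col1a2*, adjusted p = 0.0519) and 0.18 (*Col6a2*). With the mean of all its sets *Col1a2* differed by -0.25 (adjusted p = 0.498). The median difference of the 38 genes was 0.03, against 0.06 over all genes. Before adjustment, limma gave p under 0.05 to 7 of the 38 that were higher and 7 that were lower. For all genes these numbers were 1937 and 1891. The higher ones included *Col4a1* (1.02, adjusted p = 0.075), *Col18a1* (0.79, adjusted p = 0.0604) and *Col12a1* (1.13, adjusted p = 0.1). The lower ones that did not pass were *Col1a2*, *Postn* (-1.07, adjusted p = 0.061) and *Fmod* (-1.09, adjusted p = 0.159).

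*C1qtnf3* had 4.36, 3.56 and 5.19 in *Ahr*-/- skin, against 6.56, 7.57 and 7.52 in *Ahr*+/- skin, and was lower (-2.84, SE 0.50, adjusted p = 0.00846). *Aspn*, with 6.04, 6.56 and 7.38 against 9.13, 9.0 and 9.35 in *Ahr*+/- skin, was 5.68 times lower (-2.51, SE 0.29, adjusted p = 0.000738). *Ogn*, with 8.30, 8.73 and 9.42 against 10.25, 10.74 and 11.04 in *Ahr*+/- skin, was 3.61 times lower (-1.85, SE 0.35, adjusted p = 0.0115). *Lum* was 2.17 times lower, with 11.02, 10.64 and 11.58 against 12, 12.22 and 12.37 in *Ahr*+/- skin (-1.12, SE 0.27, adjusted p = 0.038). No *Ahr*-/- array reached an *Ahr*+/- array for any of the 4, and replicate 3 was the highest *Ahr*-/- array for each. Such a lack of overlap on day 2 was found for 16 of the 38 genes and for 33% of all genes. *Omd* (-1.66, adjusted p = 0.0147) and *Ecm2* (-1.58, adjusted p = 0.0362), the remaining genes of the chromosome 13 row, were lower too. These calls were lost under 7 (*Omd*) and 8 (*Ecm2*) of 19 alternatives. With the *Gapdh* 3'/5' difference as a covariate, *Omd* gave -0.95 (adjusted p = 0.571) and *Ecm2* -1.75 (adjusted p = 0.376). The flanking *Cenpp* (-0.79, adjusted p = 0.113), *Nol8* (-0.64, adjusted p = 0.138), *Bicd2* (-0.36), *Ippk* (-0.06) and *Iars* (0.04) did not pass.

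**Figure D4:**
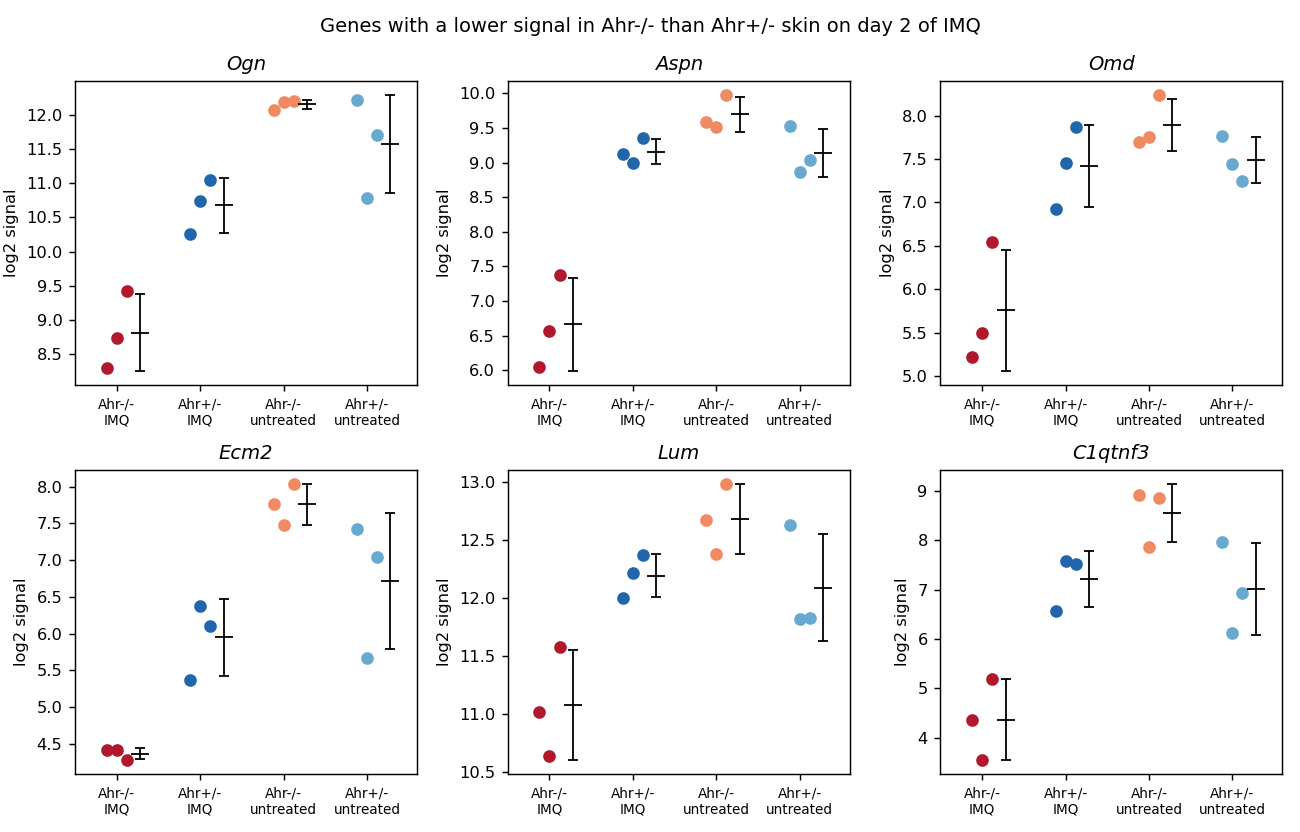
Log2 signal in each array (points) with the mean and SD of each group of 3 (bars) for *Ogn*, *Aspn*, *Omd*, *Ecm2*, *Lum* and *C1qtnf3*, IMQ-treated *Ahr*-/- skin at the left. The IMQ-treated *Ahr*-/- arrays lie below all others in every panel (*Aspn* 6.04 to 7.38, with no other array under 8.86).

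**Figure D5:**
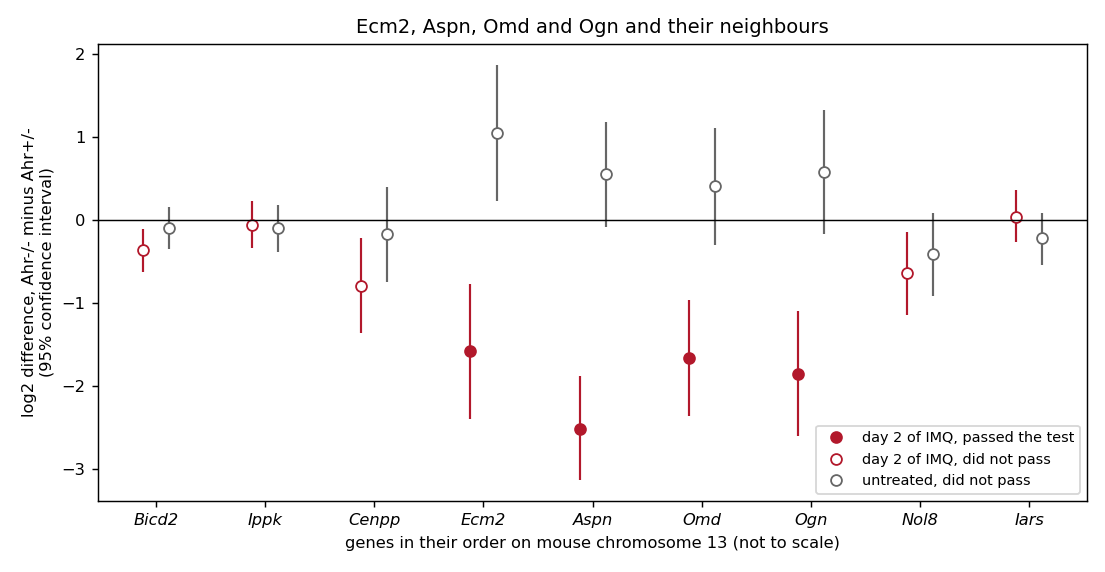
Log2 difference between *Ahr*-/- and *Ahr*+/- skin, with 95% confidence intervals from limma, for 9 genes in their order on mouse chromosome 13, on day 2 of IMQ (red) and in untreated skin (grey). *Ecm2*, *Aspn*, *Omd* and *Ogn* lie between -2.51 and -1.58 on day 2, and their neighbours lie between -0.79 and 0.04.

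The 2 *Ahr*-/- arrays with the high *Gapdh* 3'/5' difference bear on this comparison. With that difference as a covariate none of the 4 genes passed: *Aspn* gave -1.88 (adjusted p = 0.0852), *Ogn* -1.40 (adjusted p = 0.435), *C1qtnf3* -1.92 (adjusted p = 0.402) and *Lum* -0.53 (adjusted p = 0.851). With replicate 3 as the only *Ahr*-/- array, *Aspn* differed by -1.79, *Ogn* by -1.25, *C1qtnf3* by -2.03 and *Lum* by -0.62. Since the *Gapdh* difference was high in those 2 arrays alone, the covariate fit rests mainly on replicate 3, and the 2 settings are not separate checks. *Aspn* passed without any single array; *Lum* and *Ogn* were lost without IMQ-treated *Ahr*+/- replicate 2 or 3 or *Ahr*-/- replicate 1 or 2, and *C1qtnf3* without *Ahr*+/- replicate 2 or *Ahr*-/- replicate 2, which left 1 or 2 genes, while 7 passed without *Ahr*+/- replicate 1.

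Other cell types differed in the same arrays. The 4 neutrophil genes measured were all higher in *Ahr*-/- skin on day 2, with means of 10.50, 10.70 and 10.50 in *Ahr*-/- skin and 8.61, 7.03 and 6.54 in *Ahr*+/- skin. Of 6 keratinocyte genes, *Krt1* (-2.79) and *Krt10* (-2.71), both of the differentiating layers, were lower, with *Krt14* at -0.02. Of 10 fibroblast genes only *Twist2* passed, and it was higher (0.67, adjusted p = 0.0349). The part of these cell types in the lower signals of *Aspn*, *Ogn*, *Lum* and *C1qtnf3* was not tested.

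In untreated skin none of the 38 genes passed between the genotypes in limma, and 1 gene passed of all 18193 (0.0055% higher and 0% lower). Over all genes, 742 were higher and 438 lower at an unadjusted p under 0.05. The lowest p among the 38 belonged to *Col12a1*, with 7.40, 7.83 and 7.04 in *Ahr*-/- skin, against 7.93, 9.48 and 8.53 in *Ahr*+/- skin (-1.22, SE 0.36, adjusted p = 0.717), and *C1qtnf3*, with 8.92, 7.86 and 8.86 in *Ahr*-/- skin, against 7.97, 6.12 and 6.93 in *Ahr*+/- skin (1.54, SE 0.50, adjusted p = 0.719). The groups did not overlap for *Col12a1* and did for *C1qtnf3*. *Aspn*, *Ogn*, *Lum* and *C1qtnf3*, lower in *Ahr*-/- skin on day 2, were higher by value without treatment, by 0.55, 0.58, 0.59 and 1.54. No member passed under any of the 18 alternatives run for this comparison.

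The response to IMQ itself differed between the genotypes for 4 of the 38 genes, against 1.32% of all genes, tested as the change in *Ahr*-/- skin minus the change in *Ahr*+/- skin. It was more negative for *Aspn* (-3.06, SE 0.41, adjusted p = 0.00576), *Ogn* (-2.44, SE 0.49, adjusted p = 0.0346) and *C1qtnf3* (-4.38, SE 0.70, adjusted p = 0.0154), which is 7.89% of the list, against 0.786% of all genes. It was more positive for *Col12a1* (2.35), which is 2.63%, against 0.539%. *Lum* missed the threshold by little (-1.71, adjusted p = 0.0502), and passed under 9 of 24 alternatives. For the other genes that passed in 1 genotype alone the difference was not shown: *Fmod* (-1.30, adjusted p = 0.274), *Postn* (-1.09, adjusted p = 0.199), *Mfap5* (-0.28), *Col6a3* (0.74, adjusted p = 0.244), *Col6a1* (0.35), *Col4a1* (1.43, adjusted p = 0.11), *Col4a2* (1.07, adjusted p = 0.189), *Col18a1* (1.10, adjusted p = 0.0942), *Thbs1* (0.75), *Pdgfra* (0.56) and *Lox* (-0.58). *Aspn* kept its call without any single array, whereas *Ogn* lost its call without any one of 8 arrays, *Col12a1* without any one of 9, and *C1qtnf3* without untreated *Ahr*-/- replicate 1 or IMQ-treated *Ahr*+/- replicate 2; none of the 4 passed with the *Gapdh* difference as a covariate (*Aspn* -2.40, adjusted p = 0.129) or with replicate 3 as the only treated *Ahr*-/- array (*Aspn* -2.33, adjusted p = 0.0502).

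Around the list, 81 other genes of matrix synthesis, signalling and breakdown were measured of 86. Of them 14 rose and 19 fell in *Ahr*-/- skin after IMQ (17.3% and 23.5%, against 10.6% and 12.1% of all genes). After IMQ in *Ahr*+/- skin, 5 of the 81 rose and 12 fell (6.17% and 14.8%, against 5.22% and 3.83% of all genes). On day 2, *Ahr*-/- skin had 10 of them higher and 4 lower than *Ahr*+/- skin (12.3% and 4.94%, against 2.12% and 1.86% of all genes).

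Of 15 genes for collagen modifying and folding enzymes, *Plod2*, a lysyl hydroxylase that shapes cross-links, fell in both genotypes (-1.05, adjusted p = 0.019, in *Ahr*-/- skin and -1.42, adjusted p = 0.00974, in *Ahr*+/- skin). *P4hb*, the disulfide isomerase subunit of prolyl hydroxylase, rose in both (0.94 in *Ahr*-/- skin and 0.67 in *Ahr*+/- skin). *Serpinh1*, the collagen chaperone HSP47, fell in *Ahr*+/- skin (-1.42, adjusted p = 0.00181), with 10.53, 10.52 and 10.51 after IMQ and 12.31, 11.58 and 11.94 without, and differed by -0.34 in *Ahr*-/- skin. *Plod3* and *Loxl3* rose in *Ahr*-/- skin (0.90 and 0.69) and were higher there than in *Ahr*+/- skin on day 2 (0.89, adjusted p = 0.0432, and 0.95, adjusted p = 0.0156). Of the 4 procollagen proteinase genes, *Pcolce2*, an enhancer of trimming, fell in *Ahr*-/- skin (-2.21, adjusted p = 0.00075), and *Bmp1*, the C-proteinase, did not pass (0.18 in *Ahr*-/- skin and -0.75 in *Ahr*+/- skin).

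Of the 11 other collagen chains, *Col4a5* and *Col4a6* included, 1 rose and 4 fell in *Ahr*-/- skin and 4 fell in *Ahr*+/- skin, where *Col16a1* (-0.86) and *Col27a1* (-0.92) were the remaining falls. The chains of collagen VIII, a network collagen of vessels, went apart in *Ahr*-/- skin. *Col8a2* had 4.93, 5.68 and 5.09 in IMQ-treated *Ahr*-/- skin, against 8.33, 8.25 and 8.40 in untreated *Ahr*-/- skin (-3.09, adjusted p = 0.000527). *Col8a1* had 9.04, 8.74 and 9.47 in IMQ-treated *Ahr*-/- skin and 7.49, 7.58 and 7.35 in IMQ-treated *Ahr*+/- skin, against 7.01, 7.24 and 7.57 in untreated *Ahr*-/- skin and 7.10, 6.98 and 7.29 in untreated *Ahr*+/- skin. It rose in *Ahr*-/- skin (1.81, adjusted p = 4.82e-05), was higher there than in *Ahr*+/- skin on day 2 (1.61, adjusted p = 0.00113), and its responses differed by 1.46 (adjusted p = 0.028). On day 2 *Col8a1* passed under all 19 alternatives, the *Gapdh* covariate included (2.01, adjusted p = 0.0061).

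*Tnc* (tenascin C), a matrix glycoprotein of wounds, had the largest rise among the 22 other glycoprotein and proteoglycan genes in *Ahr*-/- skin, with 12.88, 12.78 and 12.97 in IMQ-treated *Ahr*-/- skin and 11.29, 10.40 and 10.22 in IMQ-treated *Ahr*+/- skin, against 7.12, 7.47 and 6.78 in untreated *Ahr*-/- skin and 8.17, 9.12 and 6.36 in untreated *Ahr*+/- skin. It rose in both genotypes (5.75, adjusted p = 1.25e-05, in *Ahr*-/- skin and 2.75, adjusted p = 0.00595, in *Ahr*+/- skin) and was higher in *Ahr*-/- skin on day 2 (2.24, adjusted p = 0.0329), a call lost under 8 of 19 alternatives. The difference between the responses did not pass (3.00, adjusted p = 0.0688). *Lama2*, a laminin chain gene, was lower in *Ahr*-/- skin on day 2 (-0.86, adjusted p = 0.00593) and *Emilin1* higher (1.10, adjusted p = 0.00593).

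Of 17 genes of TGF-beta signalling, which drives collagen synthesis, none rose in either genotype. Of all genes, 10.6% rose in *Ahr*-/- skin and 5.22% in *Ahr*+/- skin, so for 17 genes this count says little. In *Ahr*-/- skin 3 of the 17 fell (17.6%, against 12.1% of all genes). In *Ahr*+/- skin 2 fell (11.8%, against 3.83% of all genes). *Tgfb2* fell in *Ahr*-/- skin (-2.29, adjusted p = 0.000439), *Ltbp3*, which stores latent TGF-beta in the matrix, fell in both (-0.76 in *Ahr*-/- skin and -0.95 in *Ahr*+/- skin), *Ltbp4* fell in *Ahr*-/- skin (-0.88) and *Smad3* in *Ahr*+/- skin (-0.60). None passed between the genotypes on day 2, against 3.98% of all genes, and *Smad3* (0.54, adjusted p = 0.043) stayed under the fold limit there. *Ccn2* (CTGF), a target of the pathway, did not pass in any comparison.

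Of 12 metalloproteinase and inhibitor genes, 6 rose and 3 fell in *Ahr*-/- skin and 3 rose and 2 fell in *Ahr*+/- skin. *Mmp13*, a collagenase, had 8.69, 9.44 and 10.67 in IMQ-treated *Ahr*-/- skin and 7.78, 6.49 and 4.48 in IMQ-treated *Ahr*+/- skin, against 3.95, 3.87 and 3.57 in untreated *Ahr*-/- skin and 4.07, 3.10 and 3.44 in untreated *Ahr*+/- skin. It rose in both genotypes (5.80 in *Ahr*-/- skin and 2.71 in *Ahr*+/- skin) and was higher in *Ahr*-/- skin on day 2 (3.35, adjusted p = 0.0164), as were *Mmp8* (3.83), *Mmp9* (3.62) and *Mmp10* (2.44). *Timp1*, an inhibitor of these enzymes, rose by 4.49 in *Ahr*-/- skin and 2.85 in *Ahr*+/- skin, whereas *Timp3*, the inhibitor bound to the matrix, fell by 2.54 in *Ahr*-/- skin and by 1.74 in *Ahr*+/- skin. Neutrophils carry *Mmp8* and *Mmp9*, and all 4 neutrophil genes measured, *Mmp8* among them, rose in *Ahr*-/- skin, while 3 of the 4 did so in *Ahr*+/- skin; their part in the result was not tested.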

How the data were processed

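The values analysed were those of 12 Affymetrix whole-genome mouse arrays, 3 labelled biological replicates per group. The authors background-corrected, quantile-normalized and summarised the probes with RMA in the R package affy (version not given in the sources used here), and deposited log2 values, 1 for each probe set. The p-values measure the spread between these arrays, whose number limits the precision. Of 45101 probe sets, 34945 named 1 gene; not used were 64 controls, 932 with more genes than 1 and 9160 that had no symbol. For each of 18193 genes the set with the highest mean over all arrays was used.

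All 4 group means were fitted to all genes with limma 3.58.1 in R 4.3.3 (8 residual and 4.44 prior degrees of freedom), with Benjamini-Hochberg adjustment over all genes for each of 5 comparisons. The rank-product test of the study was not run, since it resamples over genes. The genes and lists were chosen with earlier results of these data known. Array values were given for up to 8 genes of the list per direction that passed with the largest differences, for the 2 lowest p where none passed, and for context genes chosen among up to 4 per list that passed; others were named after their values were seen. The fit was tested on simulated data with known changes. It recovered 61% of 2-fold and 95% of 4-fold changes for IMQ in *Ahr*-/- skin, and 57% and 96% between genotypes on day 2. For the difference between responses it recovered 21% and 88%, so such a difference that did not pass may still be present. The simulated noise was independent and normal, without arrays that deviate as some did here. Alternatives were another threshold, filter, scaling, choice of probe sets or model, a replicate block, the *Gapdh* 3'/5' difference as a covariate, and leaving out arrays. Promoter sequences came from RefSeq on GRCm38.p6, with an entry for 27 of the 40 genes.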

Additional observations from a re-analysis of the deposited data

Results flagged for a closer look

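The test of the difference itself marked 4 genes of the list whose response to IMQ differed between *Ahr*-/- and *Ahr*+/- skin: *Col12a1* by 2.35, *Ogn* by -2.44, *Aspn* by -3.06 and *C1qtnf3* by -4.38 on the log2 scale. Outside the list it marked the collagen chains *Col8a1* (1.46) and *Col4a5* (-2.36), the matrix genes *Ecm2* (-2.63) and *Omd* (-2.07), and *Mmp9* (2.72), *Mmp10* (2.48) and *Timp1* (1.64). *Col4a5* and *Ecm2* lost this call under 10 and 11 of 24 alternatives, and *Omd* under 15. No test for a deviating array was made, since each group held 3 arrays.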

How the results depend on the processing

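None of the differences that passed changed direction among the genes of the list and the 6 others (*Ecm2*, *Omd*, *Col4a5*, *Col4a6*, *Col8a1* and *Tnc*) refitted gene by gene under the alternatives; other context genes were not. For IMQ in *Ahr*-/- skin the number of genes that passed was 20, with 16 to 20 when 1 array was left out, 12 with the *Gapdh* 3'/5' difference as a covariate and 11 with treated replicate 3 alone. For IMQ in *Ahr*+/- skin it was 10, with 5 to 11 when 1 array was left out, 5 at an adjusted p under 0.01 and 6 with the compared groups fitted alone. Between the genotypes on day 2 it was 4, with 1 to 7 when 1 array was left out, 2 at an adjusted p under 0.01, 14 with array weights (6 higher and 8 lower), 10 with the compared groups fitted alone (5 higher and 5 lower), 0 with the *Gapdh* covariate and 1 with *Ahr*-/- replicate 3 alone. For the difference between responses it was 4, with 1 to 5 when 1 array was left out, 1 at an adjusted p under 0.01, 8 with array weights and 0 with the *Gapdh* covariate or with replicate 3 alone. In untreated skin it was 0 throughout. The causes of these shifts were not tested, beyond fewer arrays or a stricter threshold where the setting says so.

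The groups share replicate numbers, which were not shown to pair the arrays. The 18 same-numbered pairs of arrays had correlations of their deviations between -0.184 and 0.316, and 7 exceeded 0.1. Differently numbered pairs had -0.362 to 0.243. The ranges overlap widely and the arrays are few, so this check cannot decide whether the numbers pair them. With the replicate number as a block, 22 genes passed for IMQ in *Ahr*-/- skin, 9 for IMQ in *Ahr*+/- skin, 6 between genotypes on day 2, 0 in untreated skin and 5 for the difference between responses.

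Signals near the top of the range, such as those of *Col1a2*, *Col3a1* and *Dcn*, may understate differences, which was not tested. In *Ahr*-/- skin a dimmer set gave -0.06 for *Col3a1*, against -0.40, and 0.37 for *Dcn*, against -0.37. In *Ahr*+/- skin a dimmer set of *Col1a2* gave -1.37, against -0.59. Of the other probe sets of genes that passed, 24 of 25 had the same direction for IMQ in *Ahr*-/- skin, 11 of 11 for IMQ in *Ahr*+/- skin, 2 of 2 between genotypes on day 2 and 5 of 5 for the difference between responses.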
